A study of Mus musculus with 32 samples.

Results

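The CD4 and regulatory T cell genes examined here were Cd4, Cd40lg, Foxp3, Il2ra, Ikzf2, Ikzf4, Ccr8, Tnfrsf4, Tnfrsf18 and Lrrc32. They were chosen by symbol and make up 10 of the 39676 genes counted. Of the 10, 9 had enough reads to enter edgeR's test in both tumor models, and Cd40lg did not. The reads came from 32 whole mesothelioma tumors, 1 per mouse, freed of the lungs and nearby tissue. AB1 and AE17, both established mouse mesothelioma cell lines, were transplanted into BALB/c and C57BL/6 mice, respectively. Each female mouse, 8 to 10 weeks old, was inoculated with 500000 AB1 or 1000000 AE17 cells, either into the pleural space (intrapleural, IPL) or under the skin of the flank (subcutaneous, SC). This gave 4 groups of 8 mice, named AB1 IPL and AB1 SC, and AE17 IPL and AE17 SC. All tumors were taken at day 10 without any drug treatment. Each model is 1 transplanted cell line in 1 strain, so line and strain cannot be told apart. The study set the sites against each other to find genes related to invasive growth.

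CD4 is the coreceptor by which helper T cells and regulatory T cells read peptides on MHC class II molecules. Regulatory T cells restrain other immune cells. They depend on the transcription factor Foxp3, take up interleukin-2 through a high-affinity receptor that contains the Il2ra chain (CD25), and in tumors often carry the chemokine receptor Ccr8 and the TNF receptor family members OX40 (Tnfrsf4) and GITR (Tnfrsf18). Most of these genes are not restricted to regulatory T cells, since activated helper T cells share several of them and Lrrc32 is also made by platelets and endothelial cells.

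Total counts per mouse ranged from 15432258 to 20649645. Expression is given as CPM, which are counts brought to a common library size with edgeR's TMM factors over all 32 mice. A detection limit of 3 counts in a library equals 0.139 to 0.19 CPM. This limit covers counting error only. The T cell receptor genes Cd3d, Cd3e and Cd3g had at least 24 counts in every mouse and Foxp3 at least 23, so T cell RNA was present in all tumors. In RNA from whole tumors, fewer cells of a type and less RNA per cell cannot be told apart. Of the mesothelioma markers, 2 of 5 were in the table, and Wt1 had a median of 0.684 CPM in AB1 IPL (with 10.9 CPM in 1 mouse), 0.911 in AB1 SC, 2.10 in AE17 IPL and 0.0898 in AE17 SC tumors. Upk3b had medians of 0.135 (at most 31.4), 0, 1.86 and 0 CPM in the same order. DESeq2 called Upk3b higher in IPL tumors of AB1 (log2 fold change 3.47) and AE17 (7.27), and Wt1 in AE17 (4.09). None of these passed edgeR's filter there. Several libraries carried genes of other tissues. Rag1, a gene of developing lymphocytes, had between 11 and 87 counts in AB1 IPL replicates 1, 3, 4 and 5 and 26 counts in AE17 IPL replicate 5. The B cell gene Cd79a reached 31.2 CPM in AB1 IPL and 42.0 CPM in AE17 IPL tumors, and the keratin gene Krt5 reached 14.1 CPM in AE17 SC tumors. Skeletal muscle genes (Acta1, Ckm, Myh4 and Tnnt3) summed to between 90.2 and 3344 CPM in AB1 IPL and between 47.6 and 298.6 CPM in AB1 SC tumors. The names of the alignments gave a sequencing lane for each library. In AB1 all 8 IPL libraries shared lane 3 with 2 SC libraries and the other 6 SC libraries were on lane 2. In AE17 all 8 SC libraries shared lane 1 with 3 IPL libraries and the other 5 IPL libraries were on lane 2.

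The RefSeq promoter sequences (GRCm38.p6, 250 bases before to 50 bases after the start of transcription) covered 5 of the 10 genes. The sequences of Foxp3, Il2ra and Tnfrsf4 are shown because edgeR called these genes lower in IPL than in SC tumors of both models. That of Tnfrsf18 is shown because it lies 9551 bases from Tnfrsf4 on the same strand of chromosome 4. By edgeR, Tnfrsf18 was called lower in AB1 only, and it was not compared directly with Tnfrsf4. The sequences cover chrX:7579426-7579725, chr2:11642542-11642841, chr4:156013445-156013744 and chr4:156026072-156026371, all on the forward strand. The Foxp3 sequence belongs to the upstream one of 2 RefSeq starts.
Foxp3: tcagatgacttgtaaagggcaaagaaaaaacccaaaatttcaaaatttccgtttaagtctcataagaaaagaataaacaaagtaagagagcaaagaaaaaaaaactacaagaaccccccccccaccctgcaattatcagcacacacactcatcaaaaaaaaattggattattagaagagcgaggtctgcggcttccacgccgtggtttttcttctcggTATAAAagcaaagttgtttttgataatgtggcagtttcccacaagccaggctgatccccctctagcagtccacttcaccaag
Il2ra: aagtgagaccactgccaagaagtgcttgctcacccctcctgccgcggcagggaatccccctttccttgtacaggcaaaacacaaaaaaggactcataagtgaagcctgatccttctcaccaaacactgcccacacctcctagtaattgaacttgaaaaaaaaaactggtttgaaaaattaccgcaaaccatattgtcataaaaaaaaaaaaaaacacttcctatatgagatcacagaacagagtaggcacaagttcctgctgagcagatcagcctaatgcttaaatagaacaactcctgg
Tnfrsf4: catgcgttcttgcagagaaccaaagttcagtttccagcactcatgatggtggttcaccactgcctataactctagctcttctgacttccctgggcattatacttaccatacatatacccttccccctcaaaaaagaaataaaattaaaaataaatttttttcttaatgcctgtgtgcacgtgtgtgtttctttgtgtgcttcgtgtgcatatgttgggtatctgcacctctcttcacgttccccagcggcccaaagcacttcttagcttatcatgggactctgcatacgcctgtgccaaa
Tnfrsf18: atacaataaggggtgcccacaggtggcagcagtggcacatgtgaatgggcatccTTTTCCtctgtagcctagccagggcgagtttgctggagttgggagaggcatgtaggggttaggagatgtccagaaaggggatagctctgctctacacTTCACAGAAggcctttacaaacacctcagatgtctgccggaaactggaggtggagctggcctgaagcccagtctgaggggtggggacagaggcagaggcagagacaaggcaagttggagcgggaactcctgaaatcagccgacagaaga
Capitals mark matches on either strand to 5 motifs, which were STAT (TTCNNNGAA), AP-1 (TGANTCA), NFAT (GGAAAA), forkhead (TGTTTAC) and TATA box (TATAAA). The Foxp3 sequence shown held 1 TATA box, and the one at its other start (chrX:7580233-7580532) held 1 STAT and 1 NFAT match and no TATA box. Tnfrsf18 held 1 STAT and 1 NFAT match that did not overlap, and Il2ra and Tnfrsf4 held none. Among all 32851 promoters of this length, 8.3% held the STAT, 7.81% the AP-1, 23.4% the NFAT, 3.65% the forkhead and 13.6% the TATA box letters. These matches are short and describe the letters only.

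The reads of 4 of the genes could be shared with neighbours, because the strand setting of the counting is not given in the sources used here. In the GENCODE M21 annotation (GRCm38), Foxp3 at chrX:7573644-7595245 overlaps exons of Ppp1r3f, Gm36995 and Ccdc22 on the other strand and of Flicr on the same strand over 2082 bases. Foxp3 had 3922 counts in all 32 mice, Ppp1r3f had 1329, Flicr 812, Gm36995 429 and Ccdc22 46. Tnfrsf18 at chr4:156026164-156028895 overlaps Gm16008 over 414 bases, and these had 6085 and 1976 counts. The overlaps of Ikzf2 (144 bases) and Ikzf4 (37 bases) were small. Values of Foxp3 and Tnfrsf18 are therefore uncertain to the extent that such reads were split.

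Scaled to the length of their exons, the TNF receptor genes were the most abundant of the 10 in all 4 groups. In AB1 SC tumors Tnfrsf18 had 10.0 ± 1.99 CPM per kb (mean ± SD, n = 8 throughout) and Tnfrsf4 9.89 ± 2.06. Cd4 followed with 4.90 ± 1.08 and Il2ra with 3.74 ± 0.864, and Foxp3 (2.43 ± 0.347), Lrrc32 (2.26 ± 0.393) and Ccr8 (2.16 ± 0.722) lay within their spread of each other. Ikzf2 (1.04), Ikzf4 (0.762) and Cd40lg (0.405) were lower. In AE17 IPL tumors the order was different, with Lrrc32 (4.77 ± 1.89) next to Tnfrsf4 (6.58 ± 1.12) and Tnfrsf18 (5.95 ± 1.20), and with Foxp3 (0.645 ± 0.302) below Ccr8 (1.10 ± 0.313).

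**Figure D1:**
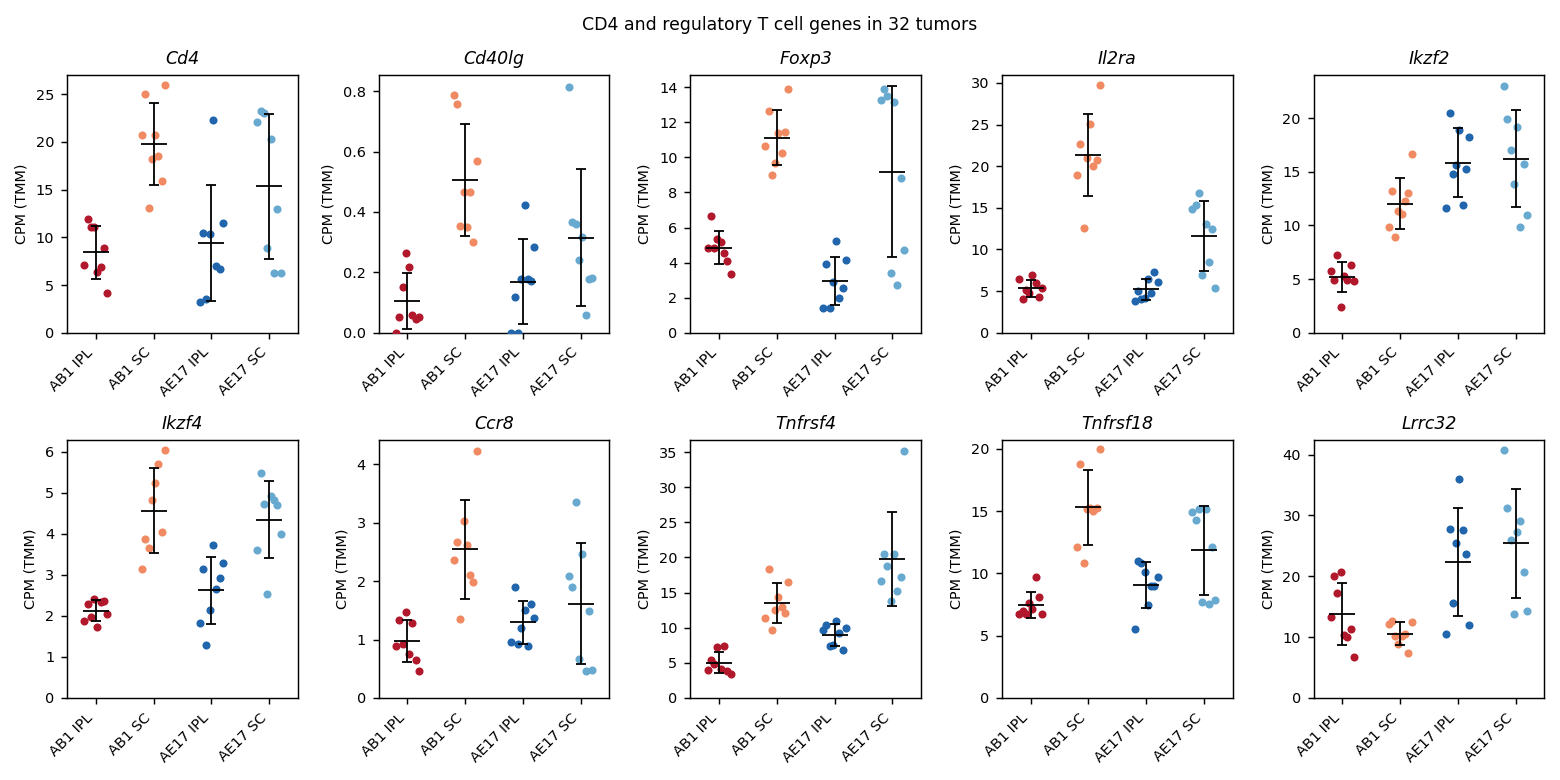
CPM (TMM) of each gene in each tumor, with points for mice and black bars for mean ± SD of 8 mice per group. In AB1 all 8 IPL mice lie below all 8 SC mice for 8 of the 10 genes, whereas in AE17 this holds for Tnfrsf4 alone and Foxp3 in SC tumors spans 2.73 to 13.9 CPM.

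To ask whether these genes differed between the sites in the AB1 model, IPL tumors were compared with SC tumors. Expression of 8 of the 9 tested genes was lower in IPL tumors (edgeR quasi-likelihood test, Benjamini-Hochberg adjusted over all genes, threshold 0.05), and none was higher. Il2ra fell the most, with a ratio of IPL to SC means of 0.251, and Lrrc32 did not pass the test. Among all 14645 tested genes, 10.7% were lower and 12.3% were higher in IPL tumors, and their median log2 fold change was -0.0023, against -1.22 for the 9 genes. The lower expression was not limited to these genes, since all 13 tested T cell receptor and T cell signaling genes were also lower.

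Cd4 (chr6:124864692-124888221) ranged from 4.18 to 11.9 CPM (median 7.98) in AB1 IPL tumors and from 13.1 to 25.9 CPM (median 19.6) in AB1 SC tumors. No IPL mouse reached the lowest SC mouse. The log2 fold change was -1.24 (SE 0.20, edgeR adjusted p = 0.000284). Cd40lg (chrX:57212143-57224042), the CD40 ligand through which helper T cells activate B cells and dendritic cells, had 0 to 5 counts in IPL and 5 to 15 counts in SC tumors. In CPM every IPL mouse was again below every SC mouse (0 to 0.263 against 0.302 to 0.788 CPM), at a level near the detection limit. Too few of its reads were present to pass edgeR's filter, and it is not counted among the calls. Without the filter its log2 fold change was -2.21 (edgeR adjusted p = 0.00165), and DESeq2 also called it lower (-2.30, adjusted p = 8.02e-05).

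Foxp3 ranged from 3.34 to 6.64 CPM (median 4.84) in AB1 IPL tumors and from 9.01 to 13.9 CPM (median 11.04) in AB1 SC tumors. The groups did not overlap, and the log2 fold change was -1.21 (SE 0.13, edgeR adjusted p = 1.34e-05). Ikzf2 (chr1:69531214-69687245) and Ikzf4 (chr10:128630843-128645991) encode Helios and Eos, Ikaros family transcription factors that act with Foxp3 in regulatory T cells. Ikzf2 ranged from 2.37 to 7.23 CPM (median 5.10) in IPL and from 8.89 to 16.7 CPM (median 11.8) in SC tumors, and Ikzf4 from 1.73 to 2.42 CPM (median 2.16) and from 3.15 to 6.06 CPM (median 4.43). Both genes were lower in every IPL mouse than in any SC mouse. Their log2 fold changes were -1.22 (SE 0.18, edgeR adjusted p = 0.000147) and -1.11 (SE 0.15, edgeR adjusted p = 6.33e-05). Of the other Ikaros family genes, 2 of 3 were lower, namely Ikzf1 (log2 fold change -0.65) and Ikzf3 (-1.18).

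Il2ra (chr2:11642807-11693193) ranged from 4.04 to 6.93 CPM (median 5.26) in AB1 IPL tumors and from 12.5 to 29.7 CPM (median 20.9) in AB1 SC tumors. This was the widest gap between the sites among the tested genes, with a log2 fold change of -2.01 (SE 0.16, edgeR adjusted p = 9.50e-07). Ccr8 (chr9:120092114-120094906), a chemokine receptor of tumor regulatory T cells, ranged from 0.47 to 1.47 CPM (median 0.903) in IPL and from 1.35 to 4.23 CPM (median 2.49) in SC tumors. For Ccr8, 7 of the 8 IPL mice lay below every SC mouse, and the log2 fold change was -1.40 (SE 0.25, edgeR adjusted p = 0.000672).

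Tnfrsf4 (chr4:156013843-156016612) ranged from 3.45 to 7.35 CPM (median 4.50) in AB1 IPL tumors and from 9.72 to 18.4 CPM (median 12.8) in AB1 SC tumors. Its neighbour Tnfrsf18 ranged from 6.72 to 9.74 CPM (median 7.08) and from 10.8 to 20.0 CPM (median 15.2). Neither gene overlapped between the sites. The log2 fold changes were -1.44 (SE 0.18, edgeR adjusted p = 4.05e-05) and -1.05 (SE 0.13, edgeR adjusted p = 3.19e-05). Lrrc32 (chr7:98489283-98502181) encodes GARP, which holds latent TGF-beta on the cell surface. It ranged from 6.79 to 20.7 CPM (median 12.4) in IPL and from 7.42 to 12.7 CPM (median 10.4) in SC tumors, with 4 IPL mice above every SC mouse. The log2 fold change of 0.37 did not pass the test (SE 0.20, edgeR adjusted p = 0.208). Beside it, 3 of 7 endothelial genes were higher in IPL tumors and edgeR called 0 of the 2 platelet genes it tested (1 at an unadjusted p under 0.05), of which limma voom called Pf4 lower (-0.79). DESeq2 called neither of these, but called higher Gp9 (3.74) and Ppbp (4.17), platelet genes that did not pass edgeR's filter. Their part in the Lrrc32 level was not tested.

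Of the 9 tested genes, 7 had every AB1 IPL mouse below every AB1 SC mouse, as did 2.53% of all tested genes, and Cd40lg had the same order. Leaving out the 4 AB1 IPL libraries with Rag1 counts, or IPL replicates 2, 3 and 4 with more than 20 CPM of Cd79a, kept the same 8 calls. Without the latter 3 libraries the log2 fold change of Lrrc32 was -0.05 (edgeR adjusted p = 0.870). Within lane 3, where 8 IPL mice were set against 2 SC mice, 5 genes passed the test as lower (0.994% of all tested genes did), which were Cd4 (log2 fold change -1.51, edgeR adjusted p = 0.0435), Foxp3 (-1.33, 0.0185), Il2ra (-2.01, 0.00188), Tnfrsf4 (-1.63, 0.0235) and Tnfrsf18 (-1.11, 0.0224). Ikzf2 (-1.20), Ikzf4 (-0.79) and Ccr8 (-1.44) kept their direction there with adjusted p values between 0.1001 and 0.114. With the lane as a covariate, 6 of the 9 tested genes passed edgeR's test and 8 had an unadjusted p under 0.05. The part of the muscle and Rag1 differences in these results was otherwise not tested.

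Genes around the members in AB1 moved with them in part. The 13 T cell receptor and signaling genes in the table, of 14 listed, were all lower in IPL tumors with a median log2 fold change of -1.34, with the T cell adhesion gene Cd2 at -1.71 and the costimulatory receptor gene Cd28 at -1.91. Their summed expression was between 48.5 and 151.2 CPM in IPL and between 180.2 and 370.0 CPM in SC tumors. The CD8 coreceptor genes Cd8a (-1.14) and Cd8b1 (-1.25) were lower too. Of 11 tested further genes used by regulatory T cells, 10 were lower, among them the inhibitory receptor gene Ctla4 (-1.999) and the costimulatory receptor genes Icos (-2.39) and Tnfrsf9 (-1.29). The exception was Nrp1, with a log2 fold change of 0.19, which limma voom called higher (0.31, adjusted p = 0.00328). Of 11 tested ligands and partners of the members, 6 were lower, and these included Ccl1 (-2.12) and Ccl8 (-1.87), which encode ligands of Ccr8, and Il2rg (-0.68), which encodes the shared chain of the interleukin-2 receptor. Of 8 tested helper T cell genes, 3 were lower (Tbx21 at -1.32, Gata3 at -0.50 and Cxcr3 at -0.86). Tbx21 and Gata3 encode the lineage factors of Th1 and Th2 cells, and neither is confined to T cells.

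**Figure D2:**
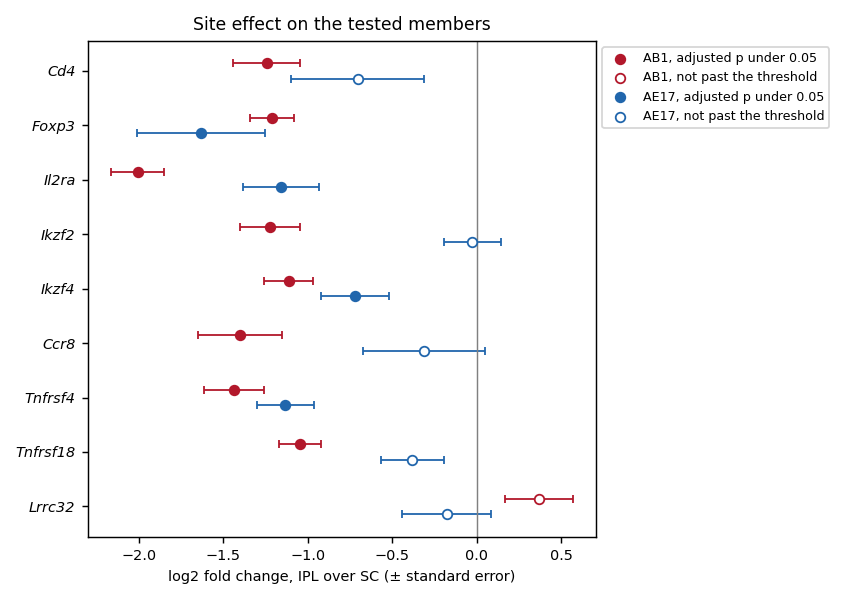
Log2 fold changes of IPL over SC tumors from edgeR for the 9 tested genes, with AB1 in red, AE17 in blue, bars for the standard error and filled points for an adjusted p under 0.05. In AB1 8 points lie between -2.01 and -1.05 and are filled, and in AE17 Foxp3, Il2ra, Ikzf4 and Tnfrsf4 are filled.

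The same comparison was made in the AE17 model. Foxp3, Il2ra, Ikzf4 and Tnfrsf4 were lower in AE17 IPL than in AE17 SC tumors, so that 4 of the 9 tested genes passed the test and none was higher. Among all 14668 tested genes, 3.13% were lower and 2.6% were higher in IPL tumors, with a median log2 fold change of 0.0043 against -0.71 for the 9 genes. In contrast to AB1, no T cell receptor or signaling gene was called lower by edgeR, DESeq2 or limma voom. Tumors of the AE17 SC group varied widely among themselves, and Foxp3 in 3 of the SC mice lay within the range of the IPL mice. All 4 calls were lost within lane 1.

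Foxp3 ranged from 1.42 to 5.25 CPM (median 2.72) in AE17 IPL tumors and from 2.73 to 13.9 CPM (median 10.98) in AE17 SC tumors. SC replicates 4, 6 and 8 (3.43, 2.73 and 4.73 CPM) lay within the IPL range, whereas the other 5 SC mice had between 8.80 and 13.9 CPM. All 8 IPL mice were below the SC median. The log2 fold change was -1.63 (SE 0.38, edgeR adjusted p = 0.0248). This call was lost when IPL replicate 7 (adjusted p = 0.0517) or SC replicate 5 (adjusted p = 0.0510) was left out. It was also lost under 4 of the 14 other settings tried. Ikzf4 ranged from 1.30 to 3.74 CPM (median 2.79) in IPL and from 2.53 to 5.49 CPM (median 4.71) in SC tumors, with a log2 fold change of -0.72 (SE 0.20, edgeR adjusted p = 0.0461), a call lost in 12 of 16 fits that left out 1 mouse. Ikzf2 had 11.6 to 20.5 CPM (median 15.41) in IPL and 9.89 to 23.04 CPM (median 16.4) in SC tumors. The ranges of Ikzf2 overlapped almost fully and its log2 fold change was -0.03 (SE 0.17, edgeR adjusted p = 0.942).

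Il2ra ranged from 3.86 to 7.30 CPM (median 4.84) in AE17 IPL tumors and from 5.33 to 16.8 CPM (median 12.7) in AE17 SC tumors. Of the 8 IPL mice, 5 lay below every SC mouse, and the log2 fold change was -1.16 (SE 0.22, edgeR adjusted p = 0.0129). Tnfrsf4 ranged from 6.89 to 10.9 CPM (median 9.43) in IPL and from 13.8 to 35.1 CPM (median 18.02) in SC tumors. It was the only member with no overlap between the sites in AE17, as held for 0.3% of the tested genes, and its log2 fold change was -1.13 (SE 0.17, edgeR adjusted p = 0.00512). Without SC replicate 8, the mouse with the highest value, it was -0.97 (adjusted p = 0.00115). Tnfrsf18 ranged from 5.52 to 10.97 CPM (median 9.34) in IPL and from 7.56 to 15.2 CPM (median 13.2) in SC tumors, and its log2 fold change of -0.38 did not pass the test (SE 0.19, edgeR adjusted p = 0.209), whereas limma voom called it lower (-0.44, adjusted p = 0.0322).

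The remaining members did not pass edgeR's test in AE17, although limma voom called 6 of the 9 lower, adding Cd4 and Tnfrsf18, as it did 12.8% of all tested genes. Cd4 ranged from 3.20 to 22.3 CPM (median 8.68) in AE17 IPL tumors and from 6.23 to 23.3 CPM (median 16.6) in AE17 SC tumors. In 7 of 8 IPL mice Cd4 was below the SC median, and IPL replicate 5 alone had 22.3 CPM. The log2 fold change was -0.71 (SE 0.39, edgeR adjusted p = 0.275). It was -1.03 without IPL replicate 5 (adjusted p = 0.0855), -1.15 without IPL replicates 5 and 8 (adjusted p = 0.0841) and -1.04 by limma voom (adjusted p = 0.0233). Ccr8 had 0.883 to 1.90 CPM in IPL and 0.466 to 3.35 CPM in SC tumors (log2 fold change -0.31, SE 0.36). Lrrc32 had 10.4 to 36.0 CPM and 13.8 to 40.7 CPM (log2 fold change -0.18, SE 0.27). The ranges of both genes overlapped widely. Cd40lg had 0 to 7 counts in IPL and 1 to 14 counts in SC tumors and did not pass edgeR's filter.

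Within lane 1, where 3 AE17 IPL mice were set against 8 SC mice, 0 of 9 genes passed edgeR's test and 4 had an unadjusted p under 0.05. Fold changes there were of similar size, with Foxp3 at -1.67 (adjusted p = 0.262), Il2ra at -0.94 (0.281), Ikzf4 at -0.56 (0.304) and Tnfrsf4 at -1.19 (0.130). With the lane as a covariate, 0 of 9 genes passed edgeR's test and 3 had an unadjusted p under 0.05. As 5 of the 8 IPL libraries were on another lane than the SC libraries, lane and site could be separated only in part. Leaving out IPL replicate 5 with its Rag1 counts, or IPL replicates 5 and 8 with more than 20 CPM of Cd79a, kept the same 4 calls. Leaving out SC replicates 5 and 6 with more than 5 CPM of Krt5 kept 3 calls and lost Ikzf4 (log2 fold change -0.66, edgeR adjusted p = 0.170).

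Of the 13 T cell receptor and signaling genes, 0 passed edgeR's test in AE17 and 0 had an unadjusted p under 0.05. DESeq2 also called 0, and limma voom with sample weights called 5 higher. Their median log2 fold change was 0.36. The CD8 genes Cd8a (1.60, edgeR adjusted p = 0.0732) and Cd8b1 (1.45, 0.0727) did not pass the threshold, and DESeq2 and limma voom called both higher. Cd8a ranged from 28.2 to 55.3 CPM in AE17 IPL and from 0.909 to 45.4 CPM in AE17 SC tumors. Of 11 further regulatory T cell genes, Icos (-1.49) and Il1rl1 (-0.71), which encodes the receptor of interleukin-33, were lower by edgeR. Mean Il1rl1 was 90.3 CPM in AE17 IPL and 147.9 CPM in AE17 SC tumors, far above Foxp3 with 2.95 and 9.19 CPM. Which cells carried the Il1rl1 RNA was not tested. Of these 11 genes 6 had an unadjusted p under 0.05, and DESeq2 called 4 and limma voom 6 of this list lower. Ctla4 had a log2 fold change of -1.15 (edgeR adjusted p = 0.0548). Of 12 ligands and partners, 8 helper T cell genes and 3 other Ikaros family genes, 0 passed edgeR's test, with 4, 1 and 0 at an unadjusted p under 0.05. DESeq2 called 0 of each, and limma voom called 1 ligand or partner gene higher and 1 lower.

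The difference between the models was then tested directly as the interaction of model and site in 1 fit of all 32 mice. Il2ra, Ikzf2 and Tnfrsf18 were lowered more at the IPL site in AB1 than in AE17. The log2 fold change in AB1 minus that in AE17 was -0.83 for Il2ra (SE 0.28, edgeR adjusted p = 0.0310), -1.18 for Ikzf2 (SE 0.25, edgeR adjusted p = 0.00153) and -0.65 for Tnfrsf18 (SE 0.23, edgeR adjusted p = 0.0408). The call for Tnfrsf18 was lost without the filter on low counts (-0.63, adjusted p = 0.0746) and with the replicate block (-0.63, adjusted p = 0.0756). Limma voom lost the call for Il2ra (-0.70, adjusted p = 0.0594) and called Ccr8 (-1.32, adjusted p = 0.0132). In the main edgeR fit 3 of 9 genes had a negative interaction, as did 8.62% of all 15681 tested genes. The others did not pass the test, with Ccr8 at -1.07 (edgeR adjusted p = 0.0910), Cd4 at -0.52 (0.459), Ikzf4 at -0.37 (0.308), Tnfrsf4 at -0.29 (0.450), Foxp3 at 0.44 (0.480) and Lrrc32 at 0.56 (0.262). All 13 T cell receptor and signaling genes had a negative interaction, with a median of -1.80, and so did both CD8 genes. With the lane as a covariate 0 of the 9 genes passed edgeR's test and 2 had an unadjusted p under 0.05, with Il2ra at -1.01 (adjusted p = 0.183), Ikzf2 at -1.05 (0.137) and Tnfrsf18 at -0.68 (0.308).

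Setting the models side by side within each site, the members did not share 1 direction. In SC tumors Il2ra (log2 fold change of AB1 over AE17 0.88, edgeR adjusted p = 0.000244) and Tnfrsf18 (0.37, 0.0480) were higher in AB1, and Ikzf2 (-0.43, 0.0367), Tnfrsf4 (-0.55, 0.00726) and Lrrc32 (-1.26, 5.14e-05) were lower. These 5 of 9 genes compare with 58.3% of all tested genes. In IPL tumors Foxp3 was higher in AB1 (0.72, edgeR adjusted p = 0.0319), and Ikzf2 (-1.61, 3.77e-09), Tnfrsf4 (-0.83, 0.000141) and Lrrc32 (-0.70, 0.0130) were lower, so that 4 of 9 genes compare with 63.4% of all tested genes. Shares of this size are near the background. Mean Ikzf2 was 15.9 ± 3.20 CPM in AE17 IPL and 5.20 ± 1.42 CPM in AB1 IPL tumors, and no mouse of one group reached the other. Foxp3 means were, in descending order, 11.1 ± 1.59 CPM in AB1 SC, 9.19 ± 4.90 in AE17 SC, 4.86 ± 0.967 in AB1 IPL and 2.95 ± 1.38 in AE17 IPL tumors. The SC groups did not differ beyond their spread (edgeR adjusted p = 0.407). With the lane as a covariate, Il2ra and Lrrc32 in SC tumors and Ikzf2 and Tnfrsf4 in IPL tumors kept their calls.

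To see whether Foxp3 and Cd4 moved beyond the T cell reads as a whole, each was set against the summed CPM of Cd3d, Cd3e and Cd3g, and Foxp3 also against Cd4. In AB1 these ratios did not differ detectably between the sites, while in AE17 all 3 were lower in IPL tumors. Summed Cd3 was 18.6 ± 8.58 CPM in AB1 IPL and 43.5 ± 12.03 CPM in AB1 SC tumors. In AE17 it was 37.2 ± 11.01 CPM in IPL and 25.2 ± 19.8 CPM in SC tumors, the opposite order. Each of the 6 ratio differences was tested by exact permutation (two-sided, n = 8 per site, smallest possible p = 0.000155), with adjustment over the 6.

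In AE17 the log2 ratio of Foxp3 to Cd3 ranged from -3.97 to -3.27 in IPL tumors and from -2.19 to -0.14 in SC tumors. All 8 IPL mice lay below every SC mouse. The means differed by -2.27 on the log2 scale (-3.50 ± 0.28 against -1.22 ± 0.65, exact permutation p = 0.000155, the smallest possible, adjusted p = 0.000932). The ratio of Cd4 to Cd3 ranged from -2.97 to -1.29 in IPL and from -1.48 to 0.24 in SC tumors. For this ratio 7 of 8 IPL mice lay below every SC mouse, and the means differed by -1.62 (exact permutation p = 0.000311, adjusted p = 0.000932). The ratio of Foxp3 to Cd4 ranged from -1.99 to -0.94 in IPL and from -1.25 to -0.38 in SC tumors. All 8 IPL mice were below the SC median, and the means differed by -0.65 (exact permutation p = 0.00124, adjusted p = 0.00249). Within lane 1, with 3 IPL and 8 SC mice, the differences were -2.34, -1.70 and -0.65 (exact permutation adjusted p = 0.0182, 0.0182 and 0.0242).

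In AB1 the mean log2 ratio of Foxp3 to Cd3 was -1.70 ± 0.61 in IPL and -1.88 ± 0.30 in SC tumors. These means differed by 0.18 (exact permutation p = 0.467, adjusted p = 0.611, with 3 of 8 IPL mice below the SC median). The ratio of Cd4 to Cd3 differed by 0.09 (exact permutation p = 0.638, adjusted p = 0.638) and that of Foxp3 to Cd4 by 0.09 (exact permutation p = 0.51, adjusted p = 0.611). The IPL mice of AB1 spread on both sides of the SC mice for all 3 ratios. Whether the ratio differences of AB1 and AE17 differ from each other was not tested. Cd8a differed in direction between the models, and its interaction of model and site was among those past edgeR's threshold above. CD8 T cells also express the Cd3 genes used as the denominator, and their part in the ratios was not tested.

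**Figure D3:**
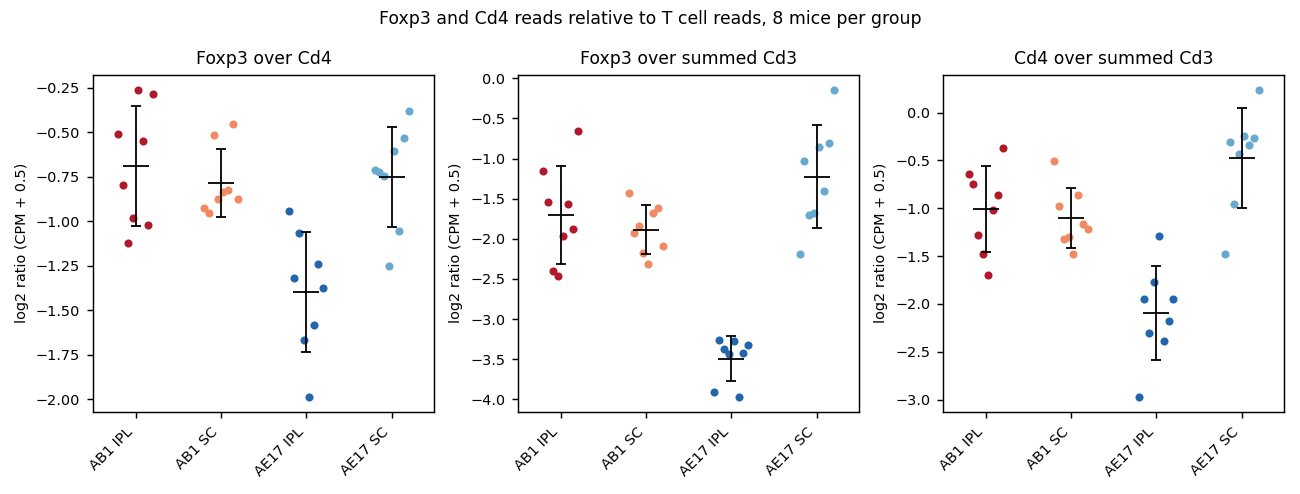
Log2 ratios of CPM (each with 0.5 CPM added) for Foxp3 over Cd4, Foxp3 over summed Cd3 and Cd4 over summed Cd3, with 1 point per mouse and black bars for mean ± SD of 8 mice. AE17 IPL mice sit at -3.97 to -3.27 for Foxp3 over Cd3, below all other mice, and the AB1 groups overlap in all 3 panels.

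**Figure D4:**
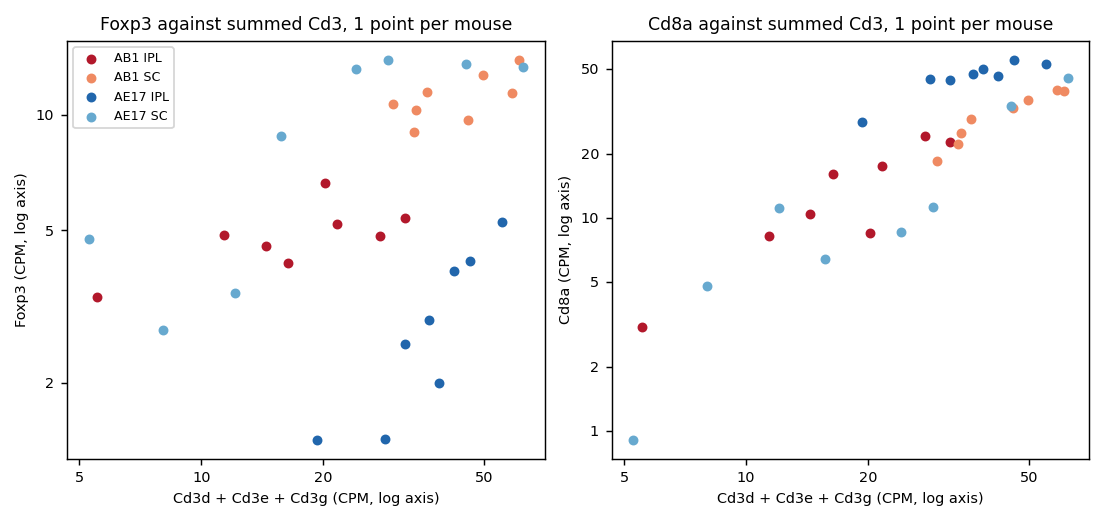
Foxp3 (left) and Cd8a (right) against summed Cd3 in CPM on log axes, 1 point per mouse. AE17 IPL mice, with 1.42 to 5.25 CPM of Foxp3 and 19.3 to 55.2 CPM of Cd3, have less Foxp3 for their Cd3 than any other mouse on the left, although their Foxp3 range overlaps those of AB1 IPL and AE17 SC mice, and have 28.2 to 55.3 CPM of Cd8a on the right.

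How the members varied from mouse to mouse within the groups was described by Pearson's r of log2 CPM after removal of the group means, over 32 mice that share lanes and sites within groups. Among the members, Foxp3 varied most closely with Cd4 (r = 0.90) and Ccr8 (0.83), and then with Il2ra (0.68), Cd40lg (0.67), Tnfrsf18 (0.66) and Ikzf2 (0.60). The T cell receptor gene Cd3e also varied with Foxp3 (0.73), Cd4 (0.81) and Ccr8 (0.77). Tnfrsf4 had r between -0.09 and 0.39 against the other members. These low values rested on AE17 SC replicate 8, the mouse with the highest Tnfrsf4, without which they lay between 0.06 and 0.64 over 31 mice. Within groups, Foxp3 and Tnfrsf4 had r of 0.51 in AB1 IPL, 0.85 in AB1 SC, 0.51 in AE17 IPL and 0.13 in AE17 SC tumors, and 0.85 in the latter without that mouse. Lrrc32 was closer to Cd4 (0.70) than to Foxp3 (0.53). Within single groups of 8 mice, Foxp3 and Cd4 had r of 0.74 in AB1 IPL, 0.83 in AB1 SC, 0.96 in AE17 IPL and 0.95 in AE17 SC tumors. Foxp3 and Il2ra had r of -0.19 in AB1 IPL tumors and 0.84, 0.64 and 0.86 in the other groups. Among 13920 genes, those most like Foxp3 were Cd4 (0.90), Ctla4 (0.87), Cd7 (0.86), Ltb (0.86) and Izumo1r (0.85). Those most like Cd4 were Foxp3 (0.90), Cd247 (0.90), Jakmip1 (0.89), Rhof (0.89) and Tspan13 (0.89).

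**Figure D5:**
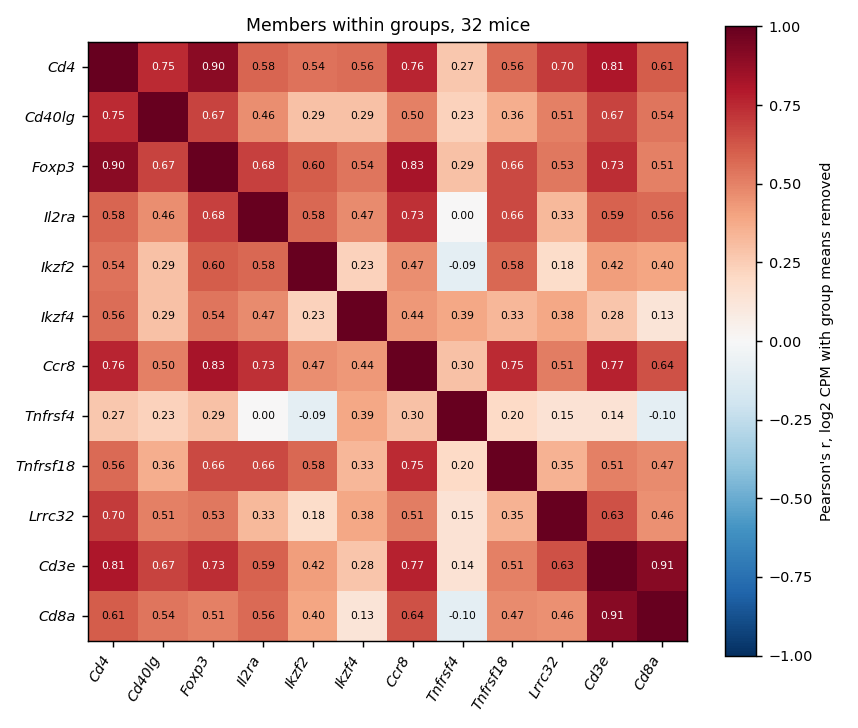
Pearson's r of log2 CPM between the 10 genes, Cd3e and Cd8a over 32 mice after removal of group means, with red for positive and blue for negative values. Among the 10 genes, Cd4, Foxp3 and Ccr8 form the reddest block (0.76 to 0.90), and the Tnfrsf4 row is pale (-0.09 to 0.39), with values of 0.06 to 0.64 when AE17 SC replicate 8 is left out.

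Markers of other immune cells that could share these genes also differed between the sites. Of 4 tested NK cell genes, 4 were lower in AB1 IPL tumors, with Ncr1 at -2.17 and Klrk1 at -1.70, and in AE17 3 of 5 were lower, with Ncr1 at -1.43. Of 3 mast cell genes, 3 were lower in AB1 and 1 (Kit, -0.94) in AE17, with Cpa3 at -1.61 and -1.30. Of 6 dendritic cell genes, which can include Cd4-expressing cells in mice, 3 were lower in AB1 and 1 in AE17. Itgax was at -2.15 in AB1 and at -0.32 in AE17, where it did not pass. B cell genes went the other way in part, with 3 of 5 higher and 1 lower in AB1 and 2 of 4 higher in AE17. Of 7 endothelial genes 3 were higher in AB1 and 0 in AE17 (edgeR, with 2 at an unadjusted p under 0.05, 1 higher by DESeq2 and 2 higher by limma voom), and 4 of 4 muscle genes were higher in AB1 and 0 in AE17 (0 at an unadjusted p under 0.05 and 0 by DESeq2 or limma voom). Of 3 platelet genes edgeR called 1 lower in AE17, and DESeq2 and limma voom called 1 lower and Ppbp higher. Of the thymus genes edgeR tested only Ccr9, which was lower in AB1 (-1.504), and DESeq2 also called Rag1 higher there (6.13). Of the skin genes only Krt10 was tested by edgeR, which called it in neither model (0.34 in AB1 and -0.41 in AE17), whereas limma voom called it lower in AE17 and DESeq2 called Krt15 lower there (-3.04). The part of these cells in the differences of the 10 genes was not tested.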

How the data were processed

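The authors sequenced polyA RNA as 50 bp single-end reads, mapped them with HISAT2 2.0.4 to the mouse genome, and deposited raw counts per gene from SummerizeOverlaps without normalization. All 32 columns were matched to samples by their labels. Of 39676 gene identifiers, 39495 matched GENCODE M21 (GRCm38) without the version, which gave coordinates and exon lengths. The authors' build name differs from it, and the strand setting of the counting is not given in the sources used here.

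Counts were tested in R 4.3.3 with edgeR 4.0.16 (filterByExpr, TMM, robust quasi-likelihood fits, two-sided F test). The Benjamini-Hochberg adjustment covered all genes tested. Each model's IPL and SC tumors were set against each other in 16 mice, and the interaction and the models within sites in 1 fit of 32 mice. DESeq2 1.42.0, the authors' tool, and limma 3.58.1 (voom with sample quality weights) were alternatives, as were other normalizations and filters, the replicate block, the lane, and leaving out each mouse. Ratios used CPM plus 0.5. Plots were drawn with matplotlib 3.10.9. Scripts were tested on simulated data.

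The genes and gene lists were chosen with earlier results of these data known. Named genes are all 10 members, at most 4 genes per pathway list by smallest adjusted p, at most 2 per marker list by mean CPM, and the 5 genes most like Foxp3 and Cd4. Nrp1, Cd79a, Ckm, Tnnt3, Gp9, Ppbp, Krt15, the Cd3 genes and the neighbours of members fall outside this rule and were named after their values were seen. The result of 1 listed helper T cell gene is not reported here. The 112 pairs of libraries within groups had a chi-square per degree of freedom of 5.51 to 134.7 between their counts, so none was a copy of another. IPL and SC mice of 1 number are different animals. P values rest on the spread between mice, and the labels do not say whether these came from 1 experiment.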

Additional observations from a re-analysis of the deposited data

Results flagged for a closer look

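In 4 of 52 groups of values, the highest mouse stood apart from the other 7 by Dixon's test, which chance does in about 1 in 20 groups. Cd4 had 22.3 CPM in AE17 IPL replicate 5, the library that also carried Rag1 and Cd79a. Cd40lg had 0.815 CPM in AE17 SC replicate 1, Tnfrsf4 had 35.1 CPM in AE17 SC replicate 8, and Tnfrsf18 had 9.74 CPM in AB1 IPL replicate 6.

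The site effect differed between AB1 and AE17 by edgeR's interaction test for Il2ra (-0.83), Ikzf2 (-1.18) and Tnfrsf18 (-0.65), all on the log2 scale as AB1 minus AE17.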

How the results depend on the processing

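Fits that took the sequencing lane into account changed the calls most. Lane and site largely coincide, so these fits held less information on the site. In the interaction, Il2ra went from -0.83 (SE 0.28) to -1.01 (SE 0.40) with the lane as a covariate. Tnfrsf18 went from -0.65 (SE 0.23) to -0.68 (SE 0.34). The lost calls therefore cannot show whether the lane itself altered expression. With the lane as a covariate 6 genes kept the site call in AB1 and 0 in AE17, 0 kept the interaction, and 2 kept the model call in SC and 2 in IPL tumors. Within 1 lane 5 genes passed in AB1 and 0 in AE17. At an adjusted p under 0.01, 1 gene passed in AE17. Without a filter 3 genes differed between the models in SC tumors. Leaving out each mouse gave 8 genes throughout in AB1 and 2 to 4 in AE17, with 2 without IPL replicate 7 or SC replicate 5. No call changed direction. Leave-one-out ranges of the AE17 ratio differences were -2.41 to -2.12 (Foxp3 to Cd3), -1.77 to -1.501 (Cd4 to Cd3) and -0.72 to -0.56 (Foxp3 to Cd4), all past the threshold. Limma voom called Ccr8 in the interaction (-1.32, adjusted p = 0.0132) and lost Il2ra (-0.70, 0.0594).

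Replicate numbers did not pair the mice. Same-numbered IPL and SC tumors had a mean r of -0.12 in AB1 and 0.07 in AE17, and 0 and 3 of 8 mice correlated best with their own number. With the replicate block 8 genes passed in AB1, 3 in AE17, 2 in the interaction, 3 between the models in SC and 4 in IPL tumors. The blocked AE17 ratios had exact adjusted p = 0.0156. The blocked test has fewer possible arrangements, so its p values cannot be as small as those without the block.

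Calls over all genes also depended on the processing. In AB1 3374 genes passed, and 386 with the lane as a covariate and 169 within 1 lane. In AE17 840 genes passed, and 1 and 14, respectively, and 316 to 2066 when 1 mouse was left out. At this depth Cd40lg, with at most 15 counts, stayed near the detection limit. The Rag1, Cd79a and Krt5 libraries and AE17 SC replicate 8 (for correlations) were chosen for removal after seeing the data.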
